A study of Mus musculus with 6 samples.

Results

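Mitochondrial β-oxidation and ketone synthesis were followed through 29 genes, from the activation of a fatty acid to the reduction of the ketone body, in livers of mice that lack ERα in hepatocytes. The genes were listed by their place in the pathway, with earlier results of these data known. Of the 29, 26 were measured by a probe set that the array's annotation pairs with 1 gene, out of 18820 genes measured in that way. The other 3 have no such probe set here. Acsl1 is not paired with any probe set in the annotation used, and Acsl3 and Acadvl share theirs with another gene, so none of these 3 was analysed. The samples are livers of 6 females of C57BL/6J background, 3 CT and 3 LERKO, each hybridised to its own array (Affymetrix Mouse Gene 1.1 ST). CT mice were ERα fl/fl, and LERKO mice were ERα fl/fl with the Alb-cre transgene, so floxed alleles are common to both groups while the transgene and the deletion cannot be told apart. The albumin promoter drives cre in hepatocytes, and the other cells of the liver keep ERα. Food was freely available to the colony by the study's methods, which give neither the age nor the fed or fasted state of the mice on the arrays. The series asks whether hepatic ERα action contributes to the liver phenotype of mice without ERα in every tissue.

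In β-oxidation a fatty acid is first joined to coenzyme A by an acyl-CoA synthetase and is then passed into the mitochondrial matrix on carnitine. There the chain is shortened by repeated cycles of dehydrogenation, hydration, a further dehydrogenation and thiolysis, and the electrons of the first reaction reach the respiratory chain through the electron transfer flavoprotein. Liver turns much of the acetyl-CoA that results into ketone bodies, most of all during fasting, and many genes of the pathway are targets of the nuclear receptor PPARα.

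All values are log2 signals made by the robust multichip average (RMA), a normalized level per probe set in which a difference of 1 is a doubling. Esr1, the deleted gene, lay at 8.45, 8.78 and 8.29 in the CT mice and at 6.75, 7.06 and 6.77 in the LERKO mice, so that every array carried the level of its label. Its difference of −1.65 had an adjusted p of 0.149 in limma, so that the deleted gene itself did not pass a threshold of 0.05 in this comparison. The study, with limma at a false discovery rate of 5%, reported 3 genes, Esr1 among them. Here 0 probe sets passed with the filter used, and 3 passed with a signal of 100 required in all arrays. Why the fits differ was not tested. Hepatocyte markers averaged between 13.05 and 13.13 in the 6 arrays. A pair of arrays also carried genes of other organs. In CT replicate 3, 3 of 8 measured pancreas markers, 4 of 10 skeletal muscle markers and 4 of 10 markers of squamous epithelium reached a signal of 100, which none of them did in the other arrays. The list means were 7.03 for pancreas (3.68 to 3.81 elsewhere), 5.84 for muscle (3.57 to 4.52 elsewhere) and 6.14 for squamous epithelium (3.45 to 3.69 elsewhere). In LERKO replicate 2, 7 of 9 adrenal markers (at most 1 elsewhere) and 3 of 9 adipose markers (0 elsewhere) reached that signal, with list means of 8.49 (3.74 to 4.04 elsewhere) and 5.70 (4.27 to 4.65 elsewhere). Kidney markers reached it in no array. Means over Kupffer and macrophage markers lay between 7.90 and 8.40 and over stellate and endothelial markers between 7.52 and 8.04. For the latter list LERKO replicate 1 was the lowest array (7.52, beside 7.73 or more in the others), and 2 of the 10 markers did not overlap between the groups. Of the 7895 probe sets with 1 gene that reached a signal of 100 in any array, 5.95% were higher and 7.57% lower in LERKO without overlap. The part of these cells in the results was not tested. As muscle, fat and adrenal gland also oxidise fatty acids, counts are given below with and without both arrays. In whole liver, fewer cells of a type and less RNA per cell cannot be told apart.

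Most genes of β-oxidation were somewhat higher in LERKO liver, by less than the spread that a test across all probe sets could separate. Of the 26 measured members, 21 had a log2 fold change above 0 (80.8%, beside 45.7% of all 7895 probe sets that passed the signal filter and have 1 gene) and 5 lay below 0 (54.3% of all). The median of the members was 0.18, beside −0.01 over all. In limma, 0 of the 26 passed an adjusted p of 0.05, as did 0% of all probe sets with 1 gene, and the adjusted p values of the members ran from 0.703 to 0.836. At an unadjusted p under 0.05 in limma, 5 members were higher (19.2%, beside 2.67% of all) and 0 were lower (3.99% of all). In 8 members every LERKO mouse lay above every CT mouse (30.8%, beside 5.95% of all), and in 1 member every LERKO mouse lay below (7.57% of all). As the list was chosen with earlier results of these data known, these shares describe it and are no independent support. The upper limit of the 95% confidence interval was at most 1.95-fold in any member. All 26 passed the signal filter, 24 of them in every array. Acad10 reached a signal of 100 in 3 arrays of both groups, and Pdk4 in 5. Without both arrays that carried other organs, a comparison of 2 mice with 2, the split was again 21 above and 5 below 0. Of all probe sets with 1 gene, 41.7% and 58.3% were above and below 0 in that comparison. The median of the members was 0.26, beside −0.03 over all.

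**Figure D1:**
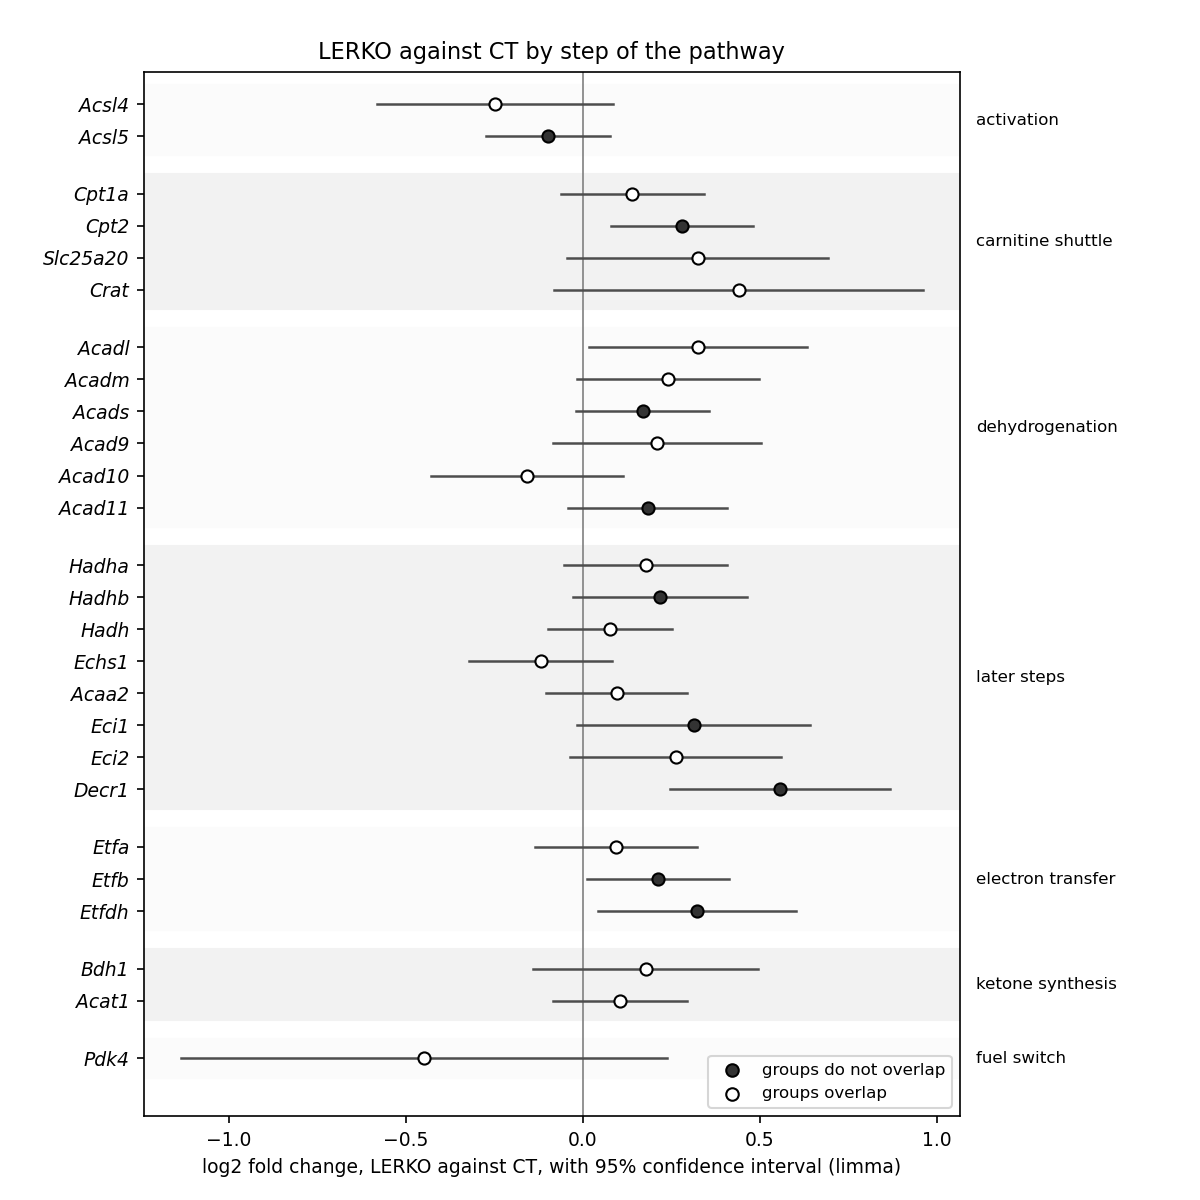
Difference between LERKO and CT (log2 fold change) of the 26 measured members, ordered by step of the pathway, with 95% confidence intervals from limma; filled points mark genes whose groups do not overlap. Of the 26 points 21 lie right of 0, Decr1 farthest at 0.56, and Pdk4 lies farthest left at −0.45.

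Both measured genes of activation, of 4 listed, had a difference below 0 (54.3% of all probe sets with 1 gene). Acyl-CoA synthetases make the acyl-CoA that oxidation and lipid synthesis both use, and Acsl4 and Acsl5 are members of that family. Acsl4, which prefers arachidonic acid, was at 8.79, 8.90 and 8.92 in CT and at 8.44, 8.93 and 8.49 in LERKO mice, −0.25 from CT to LERKO on the log2 scale (standard error 0.14), with an adjusted p of 0.748 from limma. LERKO replicate 2 was the highest of all 6 mice and the other LERKO mice were the lowest, so the groups overlapped. LERKO replicate 2 is the array with adrenal and adipose genes. Without it the difference of Acsl4 was −0.40 (unadjusted p = 0.004, adjusted p = 0.651 from limma). In that comparison 4.21% of all probe sets with 1 gene were lower at an unadjusted p under 0.05. Whether the adrenal and adipose genes have any part in the level of Acsl4 was not tested. Without LERKO replicate 1 the difference was −0.16. Acsl5, a synthetase of the mitochondrion and endoplasmic reticulum, was at 10.60, 10.59 and 10.63 in CT and at 10.41, 10.54 and 10.58 in LERKO (log2 fold change −0.10, standard error 0.07, adjusted p = 0.802 from limma). The groups did not overlap, but the nearest mice of both groups were 0.005 apart, and under all 3 further normalizations they overlapped.

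All 4 genes of the carnitine shuttle had a difference above 0 (45.7% of all probe sets with 1 gene), with a median log2 fold change of 0.30. In 1 of the 4 the groups did not overlap (5.95% of all were higher without overlap). Cpt2, the inner membrane transferase that releases acyl-CoA into the matrix, was at 10.41, 10.45 and 10.36 in CT and at 10.81, 10.57 and 10.67 in LERKO mice. All LERKO mice lay above all CT mice, at 1.22-fold the CT level (95% confidence interval 1.06 to 1.40, adjusted p = 0.703 from limma). Slc25a20, the carrier that exchanges acylcarnitine for carnitine across the inner membrane, was at 9.31, 9.03 and 9.40 in CT and at 9.83, 9.33 and 9.55 in LERKO (log2 fold change 0.32, standard error 0.15). Crat, which moves short acyl groups between carnitine and coenzyme A, was at 9.55, 9.54 and 10.02 in CT and at 10.49, 9.75 and 10.19 in LERKO (log2 fold change 0.44, standard error 0.22). For Slc25a20 and Crat, CT replicate 3 was the highest CT mouse and overtook LERKO replicate 2. These are the arrays with genes of other organs. Without both of them, with 2 mice against 2, the differences were 0.52 for Slc25a20 and 0.80 for Crat. Their unadjusted p was 0.019 and 0.002 and their adjusted p 0.404 and 0.383 from limma. In that comparison 3.25% of all probe sets with 1 gene were higher at an unadjusted p under 0.05. Whether the other organs have any part in the overlap was not tested. Without LERKO replicate 1, the highest mouse for both genes, the differences were 0.19 and 0.26. Cpt1a, the outer membrane transferase that controls entry into the pathway, was at 11.73, 11.97 and 11.81 in CT and at 12.03, 11.98 and 11.92 in LERKO. Its difference of 0.14 (95% confidence interval −0.06 to 0.34) was the smallest of the shuttle.

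Of the 6 acyl-CoA dehydrogenases measured, 5 had a difference above 0 and 1 below (45.7% and 54.3% of all probe sets with 1 gene). These enzymes differ in the length of chain that they accept. For the long-chain enzyme Acadl, the CT mice had 9.74, 9.98 and 9.59 and the LERKO mice 10.26, 9.94 and 10.08. CT replicate 2 was just above LERKO replicate 2, and the LERKO level was 1.25-fold that of CT (95% confidence interval 1.01 to 1.55, unadjusted p = 0.042, adjusted p = 0.703 from limma). Acadm, which serves medium chains, was tightly grouped in CT at 10.77, 10.81 and 10.78 and spread in LERKO at 11.18, 10.80 and 11.09. The medium-chain gene was thus clearly above CT in a pair of LERKO mice and at the CT level in LERKO replicate 2. Acads, the short-chain enzyme, had 9.93, 9.77 and 9.92 in CT and 10.00, 10.00 and 10.12 in LERKO, with no overlap and a log2 fold change of 0.17 (standard error 0.08). Acad11, which acts on very long chains, had 11.15, 11.27 and 11.25 in CT and 11.57, 11.28 and 11.37 in LERKO, with groups 0.012 apart. Acad9, known also as an assembly factor of respiratory complex I, had a difference of 0.21 (95% confidence interval −0.08 to 0.50), and its highest mouse was LERKO replicate 3. Acad10, a less studied relative near the lower limit of signal, lay between 6.48 and 6.89 in the 6 mice and differed by −0.16 (standard error 0.11).

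**Figure D2:**
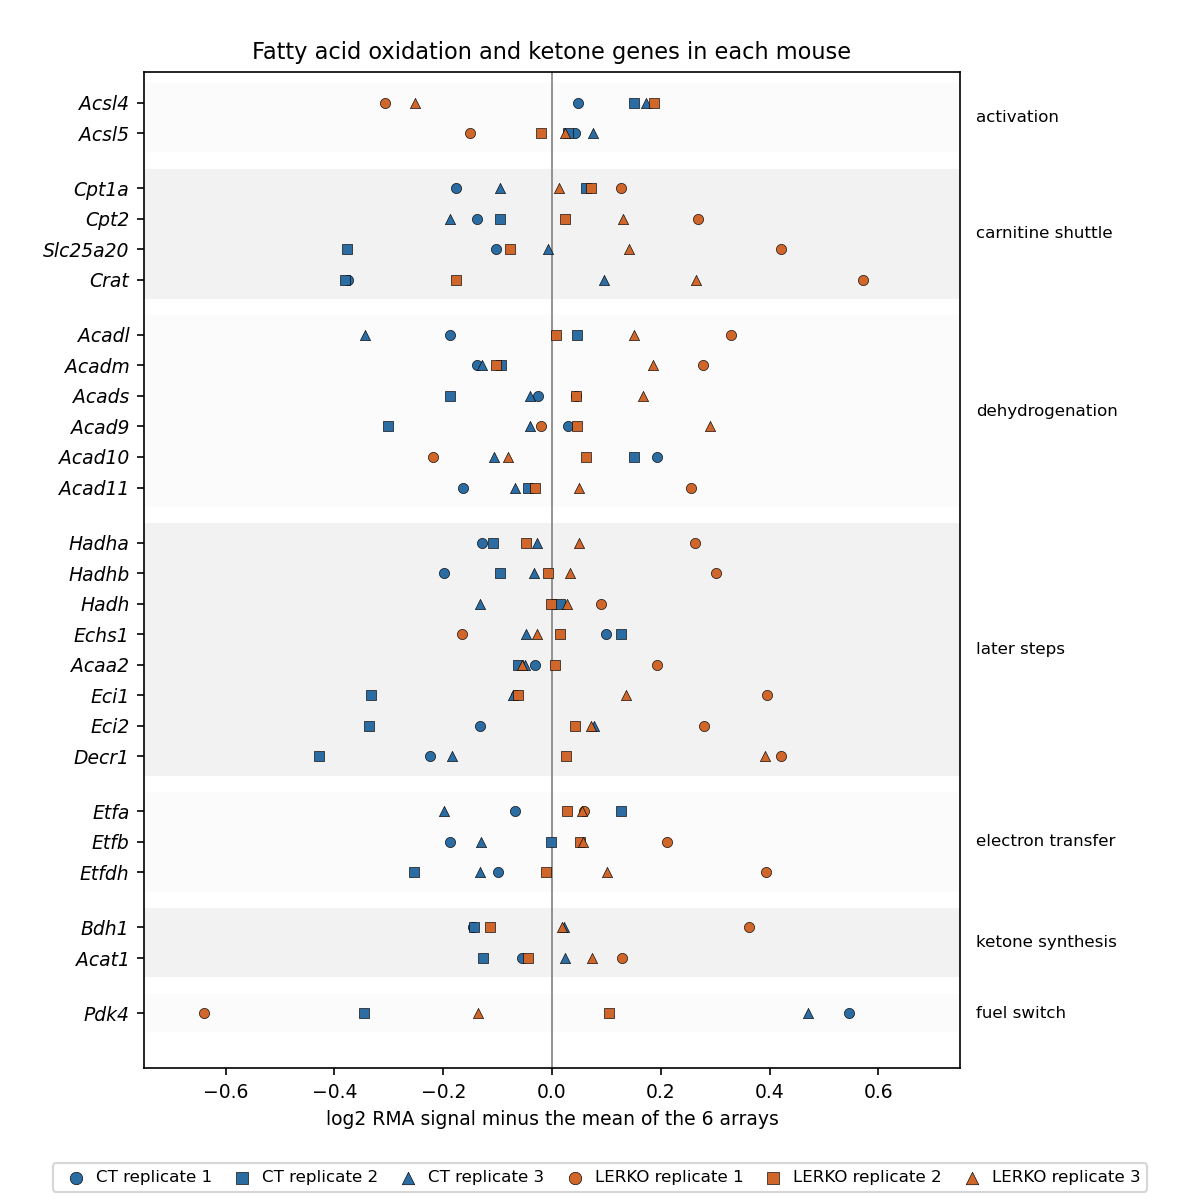
Log2 RMA signal of each of the 26 members in each mouse, relative to the mean of the 6 arrays, by step of the pathway; CT mice in blue and LERKO mice in orange, 1 symbol per replicate. LERKO replicate 1 is the highest point in 18 members, and it is the lowest in the 5 members that lie below 0 in LERKO.

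With all 6 arrays Decr1, of the later steps, had the largest difference of the members, and without both arrays that carried other organs Crat was larger (0.80, beside 0.73 for Decr1). Decr1 is the dienoyl-CoA reductase that prepares polyunsaturated fatty acids for the cycle. Its signal was 9.43, 9.22 and 9.47 in the CT mice and 10.07, 9.68 and 10.04 in the LERKO mice. The lowest LERKO mouse was 0.21 above the highest CT mouse, and the LERKO level was 1.47-fold that of CT (95% confidence interval 1.19 to 1.82, unadjusted p = 0.004, adjusted p = 0.703 from limma). With any 1 array left out, the log2 fold change of Decr1 stayed between 0.48 and 0.68. The enoyl-CoA isomerases, which shift double bonds so that unsaturated chains can be oxidised, were higher as well. Eci1 was at 9.64, 9.38 and 9.64 in CT and at 10.11, 9.65 and 9.85 in LERKO, with groups only 0.004 apart (log2 fold change 0.31, standard error 0.14; 0.19 without LERKO replicate 1). Eci2 was at 9.37, 9.17 and 9.58 in CT and at 9.78, 9.55 and 9.57 in LERKO, where CT replicate 3 overlapped the LERKO mice (log2 fold change 0.26, standard error 0.12). Without CT replicate 2, the lowest mouse for Eci2, its difference was 0.16.

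The other genes of the later steps belong to the core of the cycle. Hadha and Hadhb encode the subunits of the trifunctional protein, which carries out the later reactions on long chains. Hadha was at 11.05, 11.07 and 11.15 in CT and at 11.45, 11.13 and 11.23 in LERKO, and Hadhb at 9.31, 9.41 and 9.47 in CT and at 9.81, 9.50 and 9.54 in LERKO. In both subunits LERKO replicate 1 stood above the rest, by 0.21 and 0.27, and the log2 fold changes were 0.18 and 0.22. Without that mouse they were 0.09 and 0.12. Hadhb has a further probe set with 1 gene, and its difference there was 0.23. Hadh, the dehydrogenase of medium and short hydroxyacyl chains, and Acaa2, the thiolase, had differences of 0.08 (95% confidence interval −0.10 to 0.25) and 0.10 (−0.10 to 0.30), the latter 0.02 without LERKO replicate 1. Echs1, the short-chain enoyl-CoA hydratase, was the only gene of the later steps below 0. It lay at 10.17, 10.20 and 10.02 in CT and at 9.91, 10.09 and 10.05 in LERKO, with overlap and a difference of −0.12 (95% confidence interval −0.32 to 0.08).

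All 3 genes of electron transfer had a difference above 0 (45.7% of all probe sets with 1 gene). In 2 of them the groups did not overlap (5.95% of all were higher without overlap). Etfdh, the oxidoreductase that hands the electrons to ubiquinone, was at 9.93, 9.78 and 9.90 in CT and at 10.43, 10.02 and 10.14 in LERKO mice. All LERKO mice were above all CT mice, at 1.25-fold the CT level (95% confidence interval 1.03 to 1.52, unadjusted p = 0.030, adjusted p = 0.703 from limma). Without LERKO replicate 1 the log2 difference of Etfdh was 0.21, beside 0.32 with all arrays. Etfb, the β subunit of the flavoprotein, was at 11.50, 11.69 and 11.56 in CT and at 11.90, 11.74 and 11.74 in LERKO, again without overlap, at 1.16-fold (95% confidence interval 1.01 to 1.33, unadjusted p = 0.041, adjusted p = 0.703 from limma). Etfa, the α subunit that pairs with it, was at 9.39, 9.58 and 9.26 in CT and at 9.51, 9.48 and 9.51 in LERKO. For Etfa a CT mouse was the highest of the 6, and the log2 fold change was 0.09 (standard error 0.10). Whether the subunits differ in their response was not tested.

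Both measured genes of ketone synthesis had a difference above 0 (45.7% of all probe sets with 1 gene), with a median of 0.14 and intervals that include 0. Acat1, the thiolase that joins acetyl-CoA units, was at 10.53, 10.46 and 10.61 in CT and at 10.71, 10.54 and 10.66 in LERKO (log2 fold change 0.11, 95% confidence interval −0.08 to 0.30). Bdh1, which reduces acetoacetate to β-hydroxybutyrate, was at 10.35, 10.35 and 10.52 in CT and at 10.85, 10.38 and 10.51 in LERKO (log2 fold change 0.18, 95% confidence interval −0.14 to 0.50). The Bdh1 difference rested on LERKO replicate 1, and without that mouse it was 0.04. The other enzymes of ketone synthesis were not analysed here. Pdk4, the kinase that shuts pyruvate out of the citric acid cycle when fatty acids are the fuel, is also a target of PPARα and had the largest difference below 0. It was at 7.77, 6.88 and 7.70 in CT and at 6.58, 7.33 and 7.09 in LERKO. Within each group the mice spread widely (SD 0.49 in CT and 0.38 in LERKO, n = 3 each), the groups overlapped, and the log2 fold change of −0.45 had a 95% confidence interval of −1.13 to 0.24. With 1 array left out it ranged from −0.73 (without CT replicate 2, unadjusted p = 0.018 from limma) to −0.24 (without LERKO replicate 1). Without CT replicate 2, 2.97% of all probe sets with 1 gene were lower at an unadjusted p under 0.05, and 0 members passed an adjusted p of 0.05.

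The difference was not equal in the 3 LERKO mice. Relative to the mean of the 6 arrays, the members averaged −0.06, −0.12 and −0.04 in the CT mice and 0.15, 0.00 and 0.07 in the LERKO mice. The groups did not overlap, and LERKO replicate 2 lay nearest to CT. LERKO replicate 1 was the highest mouse in 18 of the 21 members above 0 and the lowest in all 5 members below 0, so that in 23 of 26 members it was at the end of their own direction. The exceptions were Acads and Acad9, in which LERKO replicate 3 was highest, and Etfa. This mouse helps to set that direction, and the same count over all probe sets was not made. Of all 26 members, LERKO replicate 1 was the highest array for 69.2% and the lowest for 19.2%. Over all probe sets with 1 gene, it was the highest array for 12.3% and the lowest for 22.1%. CT replicate 2 was the lowest array for 10 members (38.5%, beside 16.3% of all). LERKO replicate 2 was above the CT mean in 20 of the 21 members above 0, all but Bdh1, and LERKO replicate 3 likewise in 20, all but Acaa2. The 21 were picked by a LERKO mean that includes these mice, so such counts are high by selection. The share over all probe sets was not computed, and no conclusion is drawn from them. The members also spread more among LERKO mice (median SD 0.15) than among CT mice (0.09), whereas over all probe sets with 1 gene the median SD was 0.09 in LERKO and 0.12 in CT.

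**Figure D3:**
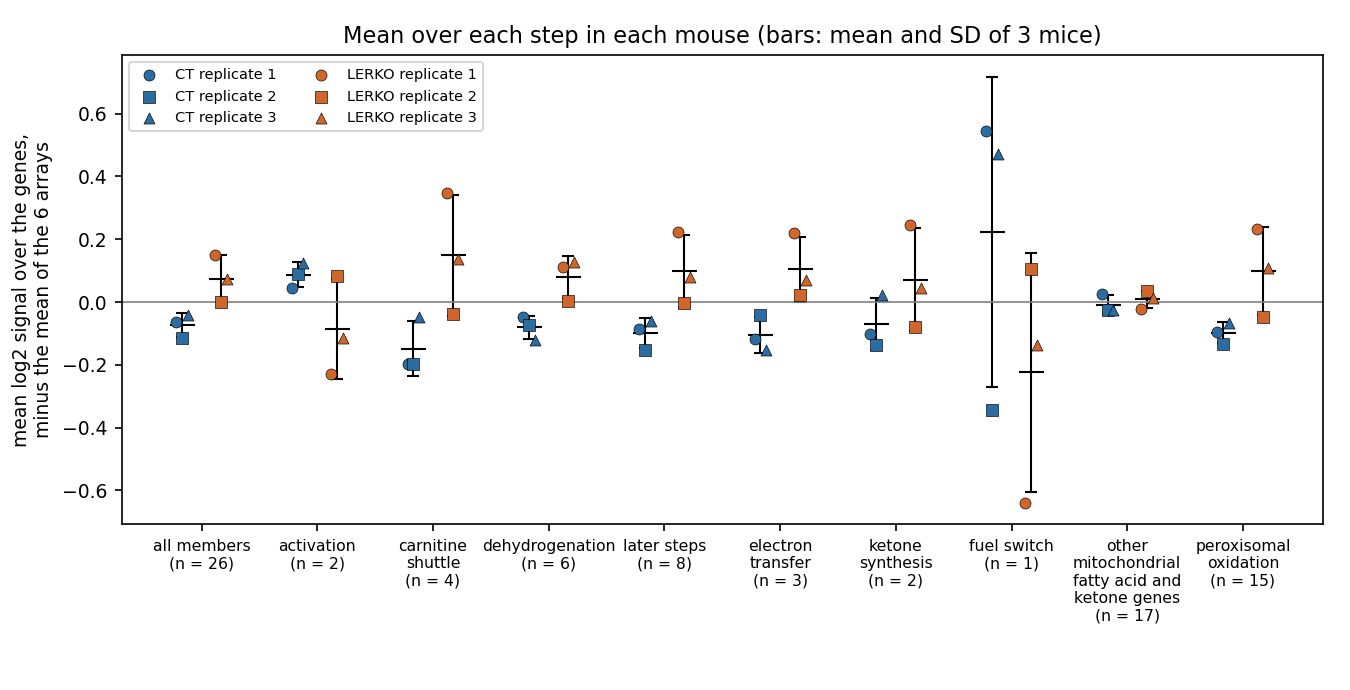
Mean log2 signal over the genes of each step in each mouse, relative to the mean of the 6 arrays, bars giving mean and SD over 3 mice per group (CT blue, LERKO orange); n is the number of genes. For carnitine shuttle, dehydrogenation, later steps, electron transfer and peroxisomal oxidation the lowest LERKO mouse exceeds the highest CT mouse; for activation, ketone synthesis, Pdk4 and the other mitochondrial genes the groups overlap.

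Leaving out LERKO replicate 1 lowered the median of the members to 0.12. Then 21 members were still above and 5 below 0 (49.1% and 50.9% of all probe sets with 1 gene). The difference of 16 of the 26 shrank by more than 1.5 times, and how often this occurs over all probe sets was not computed. Of the 5 members with an unadjusted p under 0.05 in limma, 2 remained without LERKO replicate 1. They were Decr1 (0.49, unadjusted p = 0.016) and Cpt2 (0.22, unadjusted p = 0.044). Of all probe sets with 1 gene, 1.26% were higher at that threshold. Without LERKO replicate 2, the array with adrenal and adipose markers, the median was 0.24 and 9 members were higher at an unadjusted p under 0.05, beside 2.91% of all. For CT replicate 3, the array with pancreas and muscle markers, the median without it was 0.20 and 4 members were higher at that threshold, again beside 2.91% of all. The sign of each member stayed the same with any 1 array left out.

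**Figure D4:**
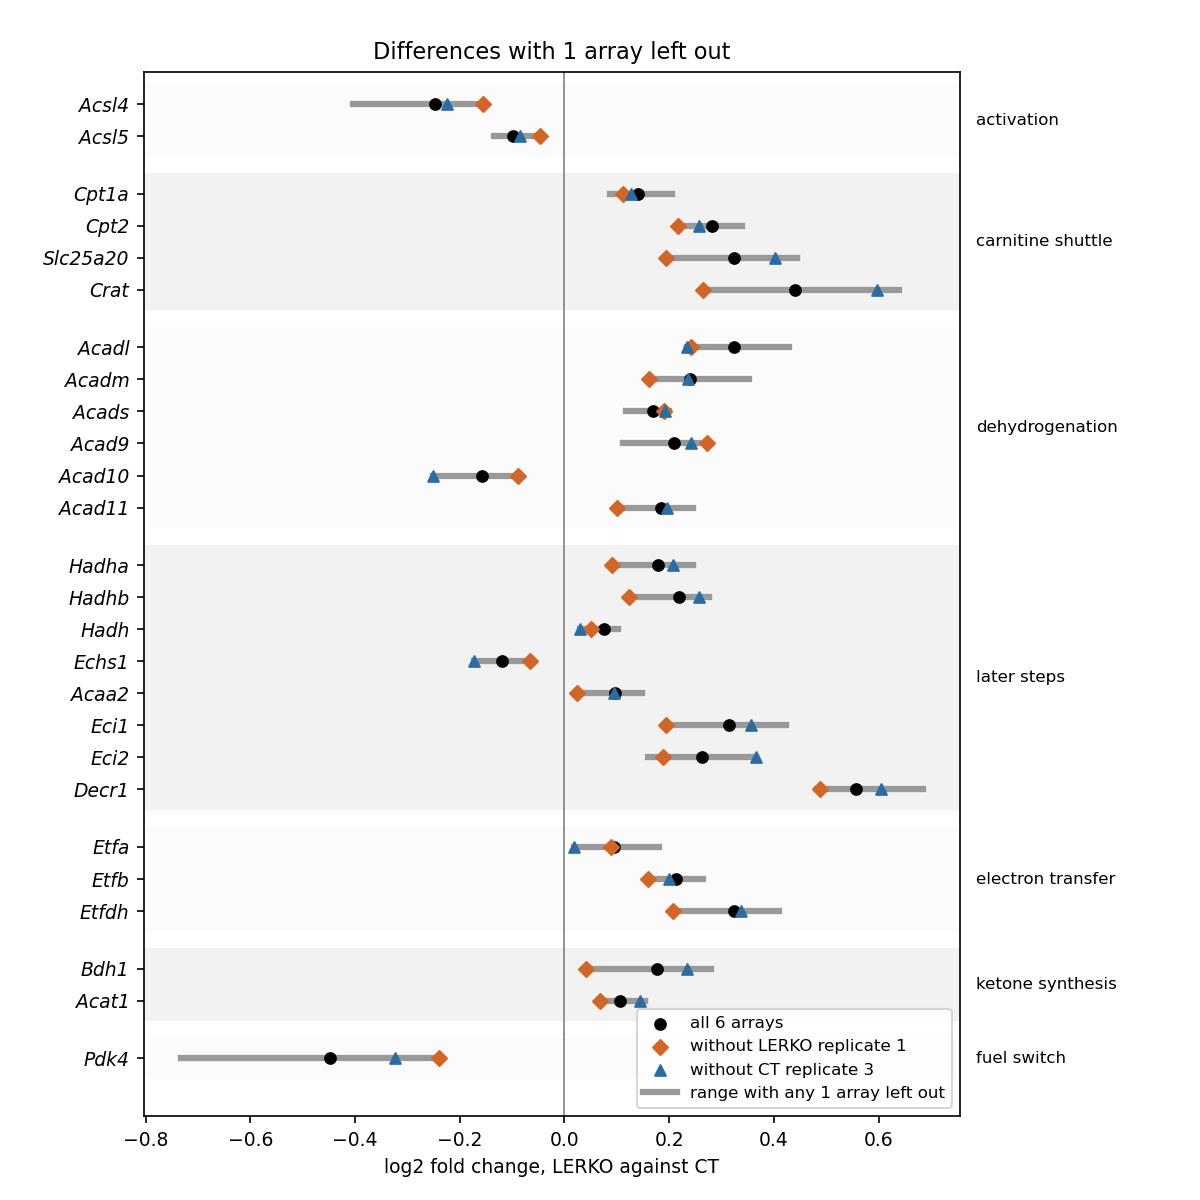
Log2 fold change of each member with all 6 arrays (black), without LERKO replicate 1 (orange) and without CT replicate 3 (blue); grey bars give the range with any 1 of the 6 arrays left out. No grey bar crosses 0, though those of Acaa2 and Etfa reach 0.02, and leaving out LERKO replicate 1 moves the Bdh1 point to 0.04.

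Other genes of fatty acid metabolism were read beside the members. Peroxisomes shorten very long chains by a parallel set of enzymes, and 12 of 15 measured genes of that list were higher and 3 lower in LERKO liver, with a median log2 fold change of 0.17, where 45.7% of all probe sets with 1 gene were above 0. At an unadjusted p under 0.05 in limma 5 were higher and 0 lower (2.67% and 3.99% of all), and 0 passed an adjusted p of 0.05. Log2 fold changes of the list ran from −0.06 to 0.57. Without overlap between the groups, 3 were higher and 0 lower (5.95% and 7.57% of all). The mean over this list was −0.09, −0.13 and −0.07 in the CT mice and 0.23, −0.05 and 0.11 in the LERKO mice, the same order of LERKO mice as in the mitochondrial members. Ehhadh, the bifunctional enzyme of peroxisomes, was at 11.26, 11.21 and 11.43 in CT and at 11.88, 11.15 and 11.32 in LERKO, with overlap and a log2 fold change of 0.15 (standard error 0.19). Another 17 measured genes of mitochondrial fatty acid and ketone metabolism, among them enzymes of branched chains, kinases of pyruvate dehydrogenase and regulators, had a median of −0.02, with 7 above and 10 below 0 (45.7% and 54.3% of all), 1 higher at an unadjusted p under 0.05 and 0 at an adjusted p under 0.05. That gene was Slc22a5, the plasma membrane transporter that brings carnitine into the cell. Slc22a5 was at 8.15, 7.79 and 8.46 in CT and at 8.90, 8.53 and 8.57 in LERKO, all LERKO mice above all CT mice, differing by 0.53 on the log2 scale (standard error 0.18), with an adjusted p of 0.703 from limma. Ppara itself was at 10.98 ± 0.02 in CT and at 10.95 ± 0.05 in LERKO (mean and SD, n = 3 each; log2 fold change −0.03, 95% confidence interval −0.18 to 0.13). Fgf21, a hormone that PPARα induces in fasting, was below a signal of 100 in all arrays, between 3.44 and 3.65. Cpt1b, the muscle form of the outer membrane transferase, shares its probe set with another gene and was not analysed. Whether the lists differ from each other was not tested.

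Promoters of the members were searched for the element that PPARα and related receptors bind, a direct repeat of 1 hexamer with a 1-base spacer (AGGTCANAGGTCA), and for the element of ERα, an inverted repeat of that hexamer with a 3-base spacer (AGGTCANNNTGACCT), on both strands and with at most 2 mismatches outside the N positions. The RefSeq promoters of the GRCm38.p6 build, windows of 300 bases that lie mostly before a gene's start and end 50 bases after it, cover 24 of the 29 members, and Acad9, Crat, Acaa2, Acat1 and Decr1 have no entry. The direct repeat was found in 3 of these 24 members (12.5%) and in 4.40% of all 27025 genes with a promoter, and the inverted repeat in 0 of 24 and in 1.74% of all. With at most 1 mismatch neither was found in a member. The matches are shown because they fall in genes on both sides of 0, Slc25a20 and Etfa above and Echs1 below. Capitals mark the match, and positions are counted from 1 at the first transcribed base. In Echs1 (chr7:140116422-140116541, minus strand) it runs from −83 to −71, and in Etfa (chr9:55512244-55512363, minus strand), where the repeat is on the opposite strand of the gene, from −77 to −65. In Slc25a20 (chr9:108662142-108662154, plus strand) it runs from 7 to 19, and only the match is printed.
Echs1: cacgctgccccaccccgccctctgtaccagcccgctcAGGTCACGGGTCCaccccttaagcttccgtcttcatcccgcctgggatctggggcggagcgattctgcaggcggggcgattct
Etfa: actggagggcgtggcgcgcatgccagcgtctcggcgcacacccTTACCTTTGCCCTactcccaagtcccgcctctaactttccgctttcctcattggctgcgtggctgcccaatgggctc
Slc25a20: AGGTGAAAGGTCG
These windows hold a small part of the sequence that controls a gene, and a match is a description of letters, not a bound site.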

How the data were processed

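Liver RNA of 3 CT and 3 LERKO mice was analysed. The authors deposited a log2 RMA signal for each probe set, computed with the oligo package (version not given in the sources used here); RMA corrects background, equalises the distributions of the arrays by quantiles and summarises probes, so only relative levels are kept. The deposited table of 35556 probe sets had not been filtered. Gene names come from the annotation of the platform: 21218 have 1 gene, 1881 several and 12457 none, and 21185 gene identifiers were found in the RefSeq table of GRCm38.p6. Where a gene had several probe sets with 1 gene, the highest mean over 6 arrays was used.

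The study's methods describe a filter on signals below 100 whose wording can be read in different ways. Here a probe set was kept if its signal was at least 100 in 1 or more arrays, which 10633 were. The groups were tested with limma 3.58.1 (lmFit, eBayes; R 4.3.3), two-sided, with genotype as the only term and Benjamini-Hochberg adjustment over all 10633 at a false discovery rate of 5%. The fit was tested on simulated data. The number of arrays limits the precision, and the smallest exact permutation p for 3 mice in each group is 0.10. The members, the other gene lists and the marker lists were chosen with earlier results of these data known. All 29 members are named where measured, and other genes are named for their role. Slc22a5, Ppara, Fgf21, Cpt1b and Ehhadh belong to that rule. Alternatives covered the signal filter, probe sets per gene, 3 further normalizations, 3 variance models, the replicate number as a block and arrays left out. Gene lists were described by counts and medians, without a test.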

Additional observations from a re-analysis of the deposited data

How the results depend on the processing

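Under all 17 alternatives, each member that was tested kept its sign, and 0 passed an adjusted p of 0.05 in limma (lowest adjusted p of any member 0.321, and 5 members at an unadjusted p under 0.05 with the settings of the report). The signal filters, the variance trend, the robust variance and the replicate block leave a fold change as it was, so the sign is no check there. With arrays left out, the remaining arrays are among those that set the sign, so the sign is a weak check there. Averaging the probe sets of a gene could change only Hadhb. Over all probe sets, 3 passed that adjusted p with a signal of 100 required in all arrays, 1 with a trend in the variance and 1 without LERKO replicate 3. With a signal of 100 required in all arrays, 24 members were tested, of which 3 were below 0. Members higher at an unadjusted p under 0.05 numbered 3 without a signal filter (1.89% of all probe sets with 1 gene) and 8 with quantile normalization over probe sets with 1 gene (4.25%), and 2 to 9 with 1 array left out (1.26% to 2.91% of all; 2 without LERKO replicate 1, 3 without CT replicate 1 or LERKO replicate 3, 9 without LERKO replicate 2). Those lower at that p numbered 0 to 1 with 1 array left out (2.12% to 7.43% of all). The median ranged from 0.12 without LERKO replicate 1 to 0.24 without LERKO replicate 2. Members higher with no overlap between groups numbered 9 to 15 and lower 1 to 3 with 1 array left out, and 0 were lower with no overlap after median centring, cyclic loess or that quantile normalization. Fewer mice per group make overlap less frequent, so these counts are read beside all probe sets with 1 gene, of which 8.39% to 12.5% were higher and 10.2% to 19.5% lower with no overlap when 1 array was left out. Without both CT replicate 3 and LERKO replicate 2, the median was 0.26, 8 members were higher and 2 lower at an unadjusted p under 0.05 (3.25% and 6.93% of all), and 17 higher and 4 lower did not overlap, beside 16.9% and 28.1% of all. The labels do not say whether replicate numbers pair the mice. Deviations from the group means of mice with the same number correlated at −0.16, −0.07 and −0.14. With 3 mice per group these values cannot settle whether the mice are paired. With the replicate number as a block, 5 members were higher and 0 lower at an unadjusted p under 0.05 in limma (1.87% and 3.12% of all). Each number holds a mouse of each group, so the block could not change the median of 0.18. An array signal compresses differences of weak and of very strong probe sets, and no level of a member was set against that of another.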
